A study of Danio rerio with 2 samples.

Results

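The distal arm of zebrafish Chromosome 4 carried 2504 of the 20243 RNA polymerase II (Pol II) peaks called in embryos at 4 hours post-fertilization (hpf). These peaks were chosen by their position among the called peaks, as those on Chromosome 4 that start at 30 Mb or beyond, so the number of peaks on the arm describes the choice and is not a test. The rest of the list comprised 497 peaks on the proximal part of Chromosome 4, 16718 peaks on the 24 other assembled chromosomes, which serve as the comparison below, and 524 peaks on unplaced scaffolds. The series held 2 samples, the Pol II immunoprecipitate and its input chromatin, both from untreated wild-type Tübingen embryos pooled at 4 hpf, just after the onset of zygotic genome activation. The values come from 1 peak list made with the antibody 8WG16, and no file of the input was analysed here. Biological replicates had been pooled before peaks were called, so none of the differences below could be set against replicate error, and no test between groups of samples was possible.

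Pol II transcribes protein-coding genes and many small nuclear RNAs, and 8WG16 recognizes the repeated tail of its largest subunit. The long arm of Chromosome 4 stands apart from the rest of the zebrafish genome. It is late replicating and heterochromatic, it is rich in repeats, and it holds large families of zinc finger genes, immune receptor genes of the NLR type and small nuclear RNA genes in many similar copies. A part of its zinc finger genes is known to be transcribed at zygotic genome activation. This is background, as no gene annotation of the build used by the list (GRCz10) was used here, and the peaks are therefore given by position alone.

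How the list was made bears on all values. Reads that matched several places equally well had been placed at 1 of them at random, so that signal is shared among near-identical copies and a peak can stand for another copy. The part played by this in the patterns below was not tested. The score is an integer whose lowest value in the list is 20, read here as 10 times the highest −log10 q in the peak. It measures how surely a peak was called, not its fold enrichment.

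Pol II peaks were dense along most of the arm and thinned towards its end. The arm held 53.7 peaks per Mb (exact Poisson 95% interval 51.6 to 55.9, counting error only), against 16.6 on the proximal part (15.1 to 18.1) and 13.3 on the 24 other chromosomes (13.1 to 13.5), among which Chromosome 22 had the most at 20.7. Peaks covered 7.67% of the arm, against 3.24% of the proximal part and 2.52% of the other chromosomes. In full 1-Mb bins, the first 38 Mb of the arm, up to position 68 Mb, held between 33 and 107 peaks per bin (median 61, 38 bins). The 8 full bins after it held between 4 and 47 (median 16), against a median of 11 in the 1250 bins of the other chromosomes. Of the 46 full bins of the arm, 40 exceeded 33.55 peaks, the 95th percentile of those 1250 bins. The split at 68 Mb was made after the values were seen.

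**Figure D1:**
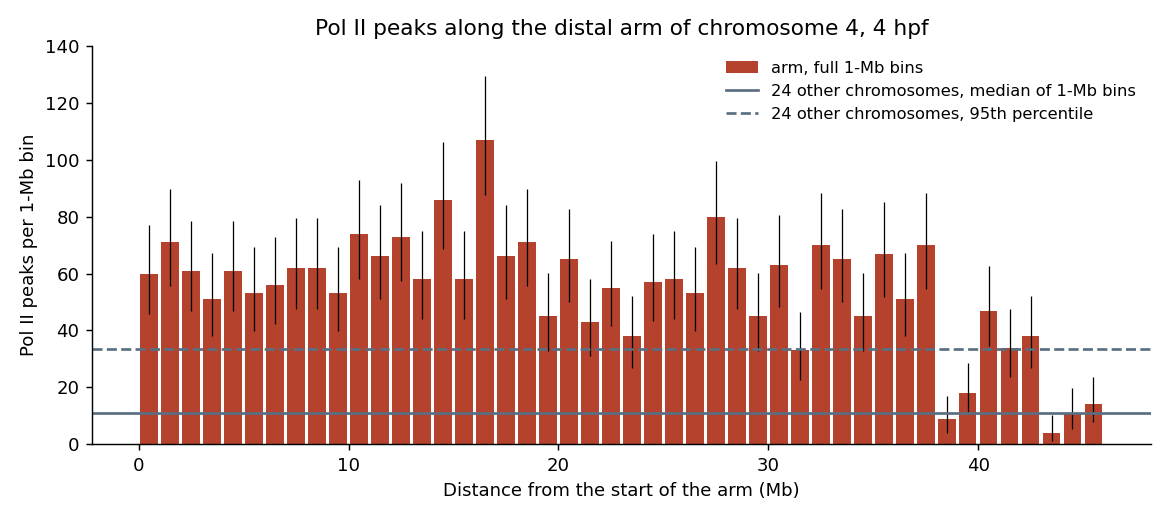
Number of Pol II peaks in each full 1-Mb bin of the distal arm (bars, with exact Poisson 95% intervals) against distance from its start at 30 Mb, with the median (11) and the 95th percentile (33.55) of 1-Mb bins on the 24 other chromosomes as lines. Bins within the first 38 Mb hold 33 to 107 peaks, while those beyond hold 4 to 47.

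The densest bin lay from 46 to 47 Mb with 107 peaks (95% interval 87.7 to 129), followed by those from 44 to 45 Mb with 86 and from 57 to 58 Mb with 80. The sparsest lay from 73 to 74 Mb with 4 peaks (1.09 to 10.2), from 68 to 69 Mb with 9 and from 74 to 75 Mb with 11. The 5 longest spaces without a peak all lay beyond 68 Mb. The longest was 875 kb (chr4:68617351-69492320), and the next was 749 kb (chr4:73526051-74275180). The other 3 measured 565 kb (chr4:72939941-73504480), 556 kb (chr4:74279351-74835170) and 529 kb (chr4:76065091-76594040). Even with these spaces counted, empty stretches were rarer on the arm than on the other chromosomes. Of its 466 bins of 100 kb, 66 (14.2%) had no peak, against 7858 of 12603 (62.4%) on the other chromosomes.

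Along the arm the number of peaks varied more than their median width and median score. Density was 59.0 peaks per Mb from 30 to 40 Mb, 70.4 from 40 to 50 Mb, 55.6 from 50 to 60 Mb, 58.0 from 60 to 68 Mb and 22.0 from 68 Mb to the last peak at 76.6 Mb. The median score in these 5 segments was 82, 83, 89, 87.5 and 70, and the median width was 820, 850, 920, 830 and 755 bp. Peaks of 5 kb or more made up 3.56, 5.54, 3.42, 4.31 and 1.58% of peaks, the last share resting on 3 peaks. In the last segment only the median space between neighbouring clusters was not longer, at 30.3 kb, against 32.6 to 35.8 kb in the 4 others. That segment had fewer clusters per Mb, 8.58 against 17.8 to 18.25, and fewer peaks per cluster, 2.57 against 3.09 to 3.93. It also held the 5 long spaces named above, which a median hardly reflects.

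At 30 Mb itself the list gave no peak for 183 kb. The last peak before this position was 1140 bp wide with a score of 270 (chr4:29951631-29952770), and the first peak of the arm was 360 bp wide with a score of 70 (chr4:30135371-30135730). No cluster was therefore divided by the choice of the start.

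Peaks were next stitched into clusters across spaces of at most 10 kb, a lone peak counting as a cluster, to ask whether the arm was dense within clusters or between them. The arm had 756 clusters, or 16.2 per Mb, against 4.67 per Mb on the other chromosomes, a ratio of 3.47. The peaks per cluster differed far less, at 3.31 against 2.84, a ratio of 1.17. Together these make up the ratio of 4.05 in peaks per Mb. Each of the 24 other chromosomes lay below the arm in both quantities, with 3.65 to 6.91 clusters per Mb and 2.41 to 3.21 peaks per cluster. The proximal part of Chromosome 4 had 5.03 clusters per Mb and 3.29 peaks per cluster, so it resembled the arm in the second quantity but not in the first.

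Spaces between peaks were compared in the same way. Within clusters, neighbouring peaks on the arm lay farther apart than elsewhere, with a median space of 1200 bp over 1748 spaces, against 870 bp over 10826 spaces on the other chromosomes and 800 bp on the proximal part. Only Chromosome 15, at 1275 bp, had a higher median. Between clusters, where only spaces above 10 kb count, the arm had the shorter spaces. The median space was 33.6 kb on the arm (quartiles 18.8 and 61.4 kb), against 81.1 kb on the proximal part and 111 kb on the other chromosomes (37.3 and 274 kb), whose own medians ranged between 59960 and 175750 bp. Spaces of more than 100 kb made up 30.7% of the length of the arm and 86.6% of that of the other chromosomes. A neighbour within 10 kb was present for 2235 peaks of the arm, or 89.3% (exact binomial 95% interval 88.0 to 90.4, counting error only). The background over the 24 other chromosomes was 82.5%, with a range of 76.2 to 86.2%. On the proximal part the share was 89.1% (86.1 to 91.7), so it did not set the arm apart from the rest of Chromosome 4.

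**Figure D2:**
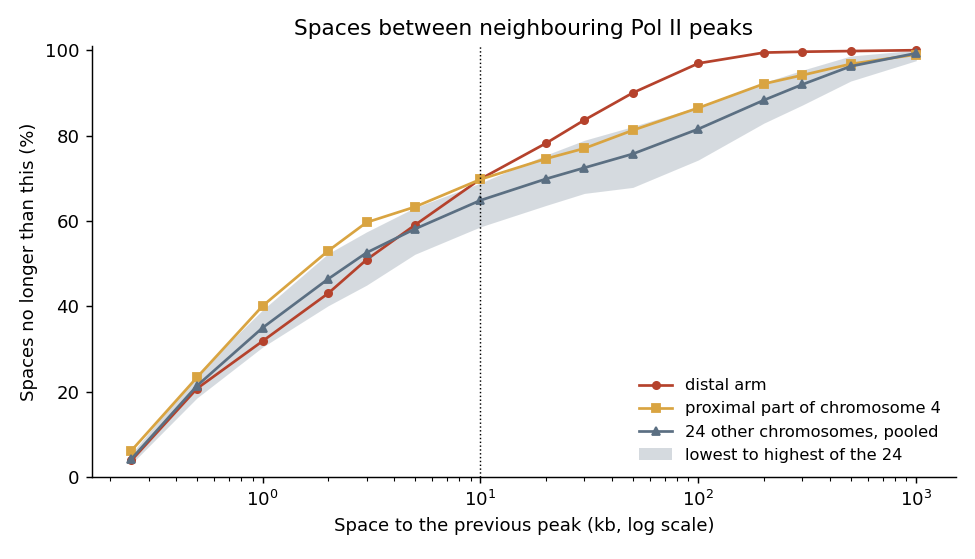
Cumulative share of spaces between neighbouring Pol II peaks (y axis, %) by length (x axis, kb, log scale) on the distal arm, on the proximal part of Chromosome 4 and on the 24 other chromosomes, with the band from the lowest to the highest of the 24; the dotted line marks 10 kb. The arm runs within the band at 5 kb and below and above it at 10 kb and beyond, up to 500 kb, reaching 96.9% at 100 kb where the other chromosomes pooled reach 81.6%.

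Most clusters of the arm were small. Of the 756, 269 were lone peaks, 311 held 2 to 4 peaks, 134 held 5 to 9 and 42 held 10 or more. Lone peaks were 35.6% of clusters on the arm, against 35.8% on the proximal part and 49.6% on the other chromosomes. Clusters of 10 or more made up 5.56% of the clusters of the arm and 4.87% of those on the other chromosomes, and they held 22.4% and 23.6% of peaks. In clusters of 2 or more, peaks covered 44.1% of the span on the arm and 58.0% on the other chromosomes, where single chromosomes ranged between 49.8 and 63.9%. The median span of such clusters was similar, 10560 bp on the arm and 10905 bp on the other chromosomes.

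Of the 5 clusters with the most peaks, 3 lay between 46.7 and 49 Mb. The largest held 28 peaks over 121 kb (chr4:46908631-47029780), and its peaks covered 47.9% of it. The next, with 24 peaks over 87.8 kb (chr4:46694401-46782190), lay before it, within the densest bin. The other 3 of the 5 were one of 20 peaks over 67.5 kb (chr4:48878461-48946000) and 2 of 18 peaks, over 59.5 kb (chr4:62038941-62098400) and 51.3 kb (chr4:63960701-64012040). The median scores of the 5 were between 50 and 89. These lay around the medians on the arm, 72 for peaks in clusters of 10 or more and 85 for all peaks. Their highest scores were 1884, 1909, 373, 685 and 532, in the order given.

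Ranked by covered length rather than by number, 3 other clusters came to the front. The 28-peak cluster still led with 58.0 kb, and the 24-peak cluster came last of the 5 with 41.2 kb. Between them were a cluster of 6 peaks covering 54.0 kb (chr4:30984751-31054810), a single peak of 49.4 kb (chr4:67928941-67978380) and a cluster of 8 peaks covering 43.9 kb (chr4:42065461-42128820). In each of these 3 most of the covered length was 1 broad peak, of 49.1, 49.4 and 41.1 kb, and the highest scores were 8286, 7627 and 12600. Both rankings named 2 clusters, and the other 3 of each differed.

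Broad Pol II peaks were a smaller part of the peaks on the arm than elsewhere. Peaks of 5 kb or more numbered 102, or 4.07% (95% interval 3.33 to 4.92), against a background of 8.60% over the other chromosomes, each of which lay above the arm (5.80 to 12.4%), and against 9.26% on the proximal part. Per Mb they were nevertheless 1.92 times as many as on the other chromosomes (2.19 against 1.14). The 5 widest measured 49.4, 49.1, 41.1, 36.2 and 30.3 kb. The first 3 are those named above, the fourth stood alone (chr4:59554321-59590520, score 4856), and the fifth was in a cluster of 4 (chr4:31283711-31314030, score 6908).

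The summits of these broad peaks were set against their edges. It was 875 bp from an edge in the 49.4-kb peak, 3245 bp in the 49.1-kb peak and 2375 bp in the 41.1-kb peak. In the 36.2-kb peak it was 5895 bp from an edge and in the 30.3-kb peak 3275 bp. In all 5 the summit was thus closer to one edge than to the middle of the peak, with a long shoulder to one side. Over all peaks the median distance from the nearer edge was 31.6% of the width on the arm and 31.4% on the other chromosomes. For other broad peaks this distance is not given here.

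By score the quartiles of the arm were within the range of the other chromosomes, towards its upper end. They were 49, 85 and 194.5, against 46, 76 and 177 on the other chromosomes pooled. Of the 24 single chromosomes, 1, 2 and 4 were above the arm in these quartiles, in that order. Of the top 1000 peaks of the list, which score at least 974, 115 lay on the arm. They made up 4.59% of its peaks (95% interval 3.81 to 5.49), against a background of 5.03% over the other chromosomes, where the range was wide (2.34 to 11.0%). The share thus lay near the background. Scores above 10000 were reached by 3 peaks of the arm (0.12% of its peaks) and 74 of the other chromosomes (0.443%). Per Mb these were level, at 0.0643 on the arm and 0.0587 on the other chromosomes. The highest score of the arm was 15371, against a median of 14274 for the highest scores of the 24 single chromosomes, 9 of which were above the arm.

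The 10 highest scoring peaks of the arm were scattered between 31.0 and 70.4 Mb and measured 1610 bp to 49.1 kb. All were wider than the upper quartile of width on the arm, 1300 bp. The highest scoring one was the narrowest of the 10, at 1610 bp, and lay in a cluster of 7 (chr4:50807631-50809240). It was followed by the 41.1-kb peak (score 12600) and a 22.5-kb peak with a score of 10115 (chr4:58061151-58083620). The fourth and the eighth shared a cluster of 5 peaks, with scores of 9802 (chr4:40810501-40820380, 9880 bp) and 8886 (chr4:40795941-40804480, 8540 bp). The remaining ones scored 9519 (chr4:55725331-55736910), 9256 (chr4:70409991-70413380), 9123 (chr4:65278261-65299010), 8543 (chr4:59261591-59266490) and 8286, the last being the 49.1-kb peak. Of the 10, 9 lay before 68 Mb, and each lay in a cluster with at least 1 other peak.

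Among lone peaks, the 3 with the highest scores were the 49.4-kb peak (score 7627), a peak of 2150 bp with a score of 7135 (chr4:49174021-49176170) and a peak of 2400 bp with a score of 6239 (chr4:37620781-37623180). Median score was lower in larger clusters. For lone peaks it was 100 (quartiles 54 and 250, n = 269), against 97 in clusters of 2 to 4, 78 in clusters of 5 to 9 and 72 in clusters of 10 or more. The same order of medians held on the other chromosomes, at 93, 87, 68 and 64. Scores of neighbouring peaks within a cluster were weakly related on the arm (Spearman's rho 0.255 over 1748 pairs, which share local background and may share a domain), and score rose with width across its peaks (rho 0.655 over 2504 peaks), as it did elsewhere (0.685 over 16718 peaks). Both measures come from the same call.

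Peaks of intermediate width made up more of the arm than of any other chromosome. Peaks of 1 to 1.5 kb numbered 602, or 24.0% of its peaks (95% interval 22.4 to 25.8), against a background of 13.7% over the other chromosomes, where no chromosome exceeded 16.4%, and against 14.3% on the proximal part. The excess sat in a narrow range of widths. Peaks of 1.1 to 1.2 kb made up 6.79% on the arm and 3.09% elsewhere, and those of 1.2 to 1.3 kb made up 7.59% on the arm and 2.95% elsewhere. At 1.3 to 1.4 kb the shares were 3.67% and 2.31%. In these 3 bins the arm lay above each of the 24 other chromosomes, while in all other bins of 100 bp up to 3 kb it lay within their range. The medians conceal this, at 840 bp on the arm and 860 bp on the other chromosomes. The range was noticed in these values, so it is a description.

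**Figure D3:**
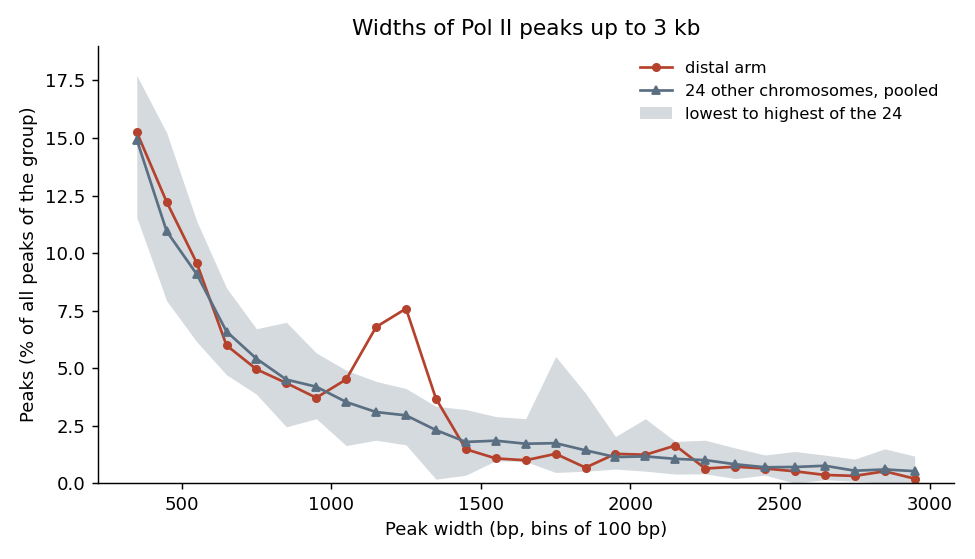
Share of Pol II peaks (y axis, % of the peaks of each group) in bins of 100 bp of peak width (x axis, bp) on the distal arm and on the 24 other chromosomes pooled, with the band from the lowest to the highest of the 24. The arm leaves the band between 1.1 and 1.4 kb, with 7.59% of its peaks at 1.2 to 1.3 kb against 2.95% for the pooled others.

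Peaks of this width also had higher scores on the arm. At 1.2 to 1.3 kb the median score was 488 on the arm (quartiles 124.5 and 703, n = 190), against 99 on the other chromosomes (62 and 215, n = 493). At 1.1 to 1.2 kb it was 273.5 on the arm, against 96 elsewhere, and at 1.3 to 1.4 kb it was 380.5, against 96.5. In the neighbouring widths the medians lay closer, with 75.5 on the arm and 69 elsewhere at 750 bp to 1 kb, 110 on the arm and 79 elsewhere at 1 to 1.1 kb, and 94 on the arm and 106 elsewhere at 1.4 to 1.7 kb. From 5 to 10 kb the arm had the lower median, 412 against 457.

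**Figure D4:**
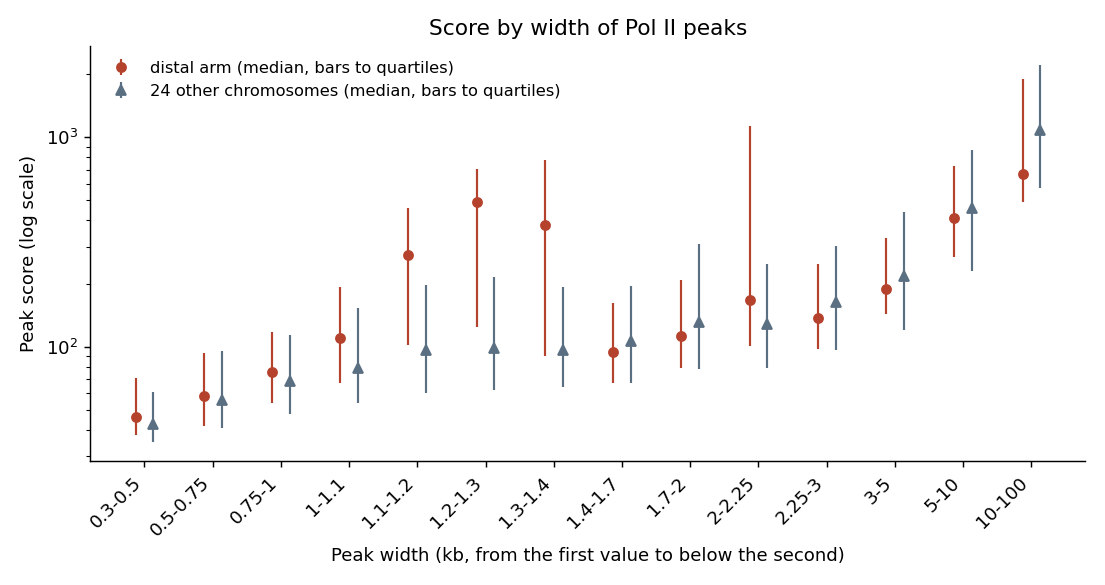
Median peak score (y axis, log scale, bars from the lower to the upper quartile) by class of peak width (x axis, kb) on the distal arm and on the 24 other chromosomes. Medians on the arm stand at 273.5 to 488 between 1.1 and 1.4 kb, where those elsewhere stay between 96 and 99, and the upper quartile of the arm also stands out at 2 to 2.25 kb.

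The strong peaks in these 3 bins were examined as a class, 1.1 to 1.4 kb wide with a score of 200 or more. Its limits were set after the values were seen. The arm held 284 of them, or 11.3% of its peaks (95% interval 10.1 to 12.6), against 351 on the other chromosomes, a background of 2.10%. Chromosome 5 came next to the arm with 47 such peaks, or 4.91% of its own. The proximal part had 9 (1.81%) and the unplaced scaffolds 31 (5.92%). In the whole list the class numbered 675, so that the arm held 42.1% of it with 12.4% of all peaks. Per Mb the class was 21.9 times as frequent on the arm as on the other chromosomes, with 6.09 against 0.278.

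On the arm the strong peaks of the class were described by score and by the place of their summits. Their median score was 554 (quartiles 403.5 and 765), with a highest score of 4811 (chr4:40808901-40810290), and within the width limits their median width was 1220 bp. That highest scoring member lay between the fourth and the eighth of the peaks named above by score, in the same cluster. On the side of its longer shoulder it ended just before the broad peak chr4:40810501-40820380. Over the class the summit lay a median of 370 bp from the nearer edge (quartiles 319 and 415 bp) and 855 bp from the farther one. In 11 of 284 (3.87%) it fell within the middle 20% of the peak. The median distance of the summit from the nearer edge was no mark of the class. Over all peaks it was 31.6% of the width on the arm and 31.4% on the other chromosomes. Weaker peaks of the same width on the arm had a median of 300 bp. For all peaks, the spread of this distance and the share within the middle 20% are not given here. Both hands occurred, with the longer shoulder to the right in 152 and to the left in 132. On the other chromosomes the median was 365 bp from the nearer edge, and 14.5% had the summit within the middle 20%.

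Beside a strong peak there was often a narrow, weaker one at a similar distance, and it lay on the side of the longer shoulder. For 124 of the 284 (43.7%, 95% interval 37.8 to 49.6) the next summit on that side was 1.3 to 1.5 kb away. This window of distances was set after the values were seen, which can favour the arm when it is set beside other chromosomes. On the side of the shorter shoulder the next summit was at that distance for 6 of the 284 (2.11%, 0.779 to 4.54). This distance is not an equal place on both sides, because the longer shoulder keeps other summits farther away. The mirrored forms were alike, as the neighbour lay to the right for 69 of the 152 peaks with the longer shoulder to the right and to the left for 55 of the 132 with the longer shoulder to the left. The neighbours had a median width of 440 bp and a median score of 108 (quartiles 81.75 and 137). The strong peak, which needed a score of 200 or more to be in the class, had the higher score in all 124 pairs, by a median of 6.26 times (quartiles 4.95 and 8.23). The space between the paired peaks was a median of 310 bp, where the smallest space in the list was 210 bp.

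**Figure D5:**
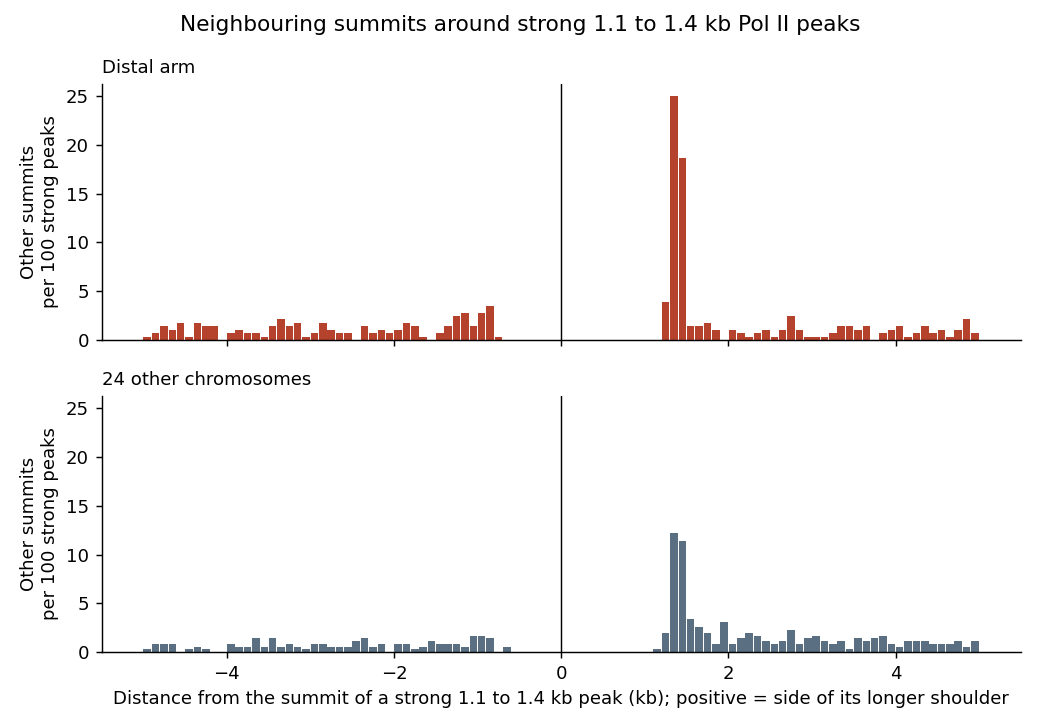
Summits of other peaks per 100 strong 1.1 to 1.4 kb peaks (y axis) by distance from the summit of the strong peak (x axis, kb, bins of 100 bp), with the side of the longer shoulder to the right, on the distal arm (top) and on the 24 other chromosomes (bottom). On the arm 71 and 53 summits lie at 1.3 to 1.4 kb and 1.4 to 1.5 kb on that side of the 284 peaks, against 43 and 40 for the 351 peaks of the other chromosomes, and no other bin on the arm exceeds 3.87 per 100 peaks.

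A pair of each hand shows the arrangement. They were chosen by score and not by distance, and their strong peaks scored above the class median of 554 on the arm. Both have long summit distances, above the upper quartile of 1435 bp over the pairs of the arm (median 1385 bp). With the longer shoulder to the right, a strong peak of 1300 bp and score 666 (chr4:63062241-63063540) had its summit 335 bp from its left edge, and its neighbour of 420 bp and score 116 (chr4:63063851-63064270) had its summit 1490 bp to the right. With the longer shoulder to the left, a strong peak of 1240 bp and score 669 (chr4:35105291-35106530) had its summit 870 bp from its left edge, and its neighbour of 460 bp and score 137 (chr4:35104511-35104970) had its summit 1485 bp to the left.

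The form of the peaks limits where a neighbour can be, since another summit cannot lie inside the strong peak or within the smallest space beside it. The nearest summit was 1250 bp away on the longer side and 800 bp on the shorter one. Within 5 kb there were 229 other summits on the longer side and 141 on the shorter one, and of these 124 and 6 lay at 1.3 to 1.5 kb. Apart from that distance the longer side had 105. At 700 to 1200 bp the shorter side had 31 summits and the longer side 0. The counts of 124 and 6 therefore do not compare equal places on the sides. Weaker peaks of the same width (score below 200) numbered 168 on the arm. Of these, 2.38% had a next summit at 1.3 to 1.5 kb on the longer side and 4.76% on the shorter one. Neighbours of the strong class scored lower by a median of 6.26 times, and the list holds no score below 20. Whether a like neighbour of a weaker peak went uncalled was not tested, so these shares do not show that weaker peaks lack one. The share with a neighbour on the longer side rose with the score limit of the class, as given below.

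The arrangement was also present elsewhere. On the other chromosomes 83 of the 351 strong peaks of the class (23.6%, 95% interval 19.3 to 28.4) had such a neighbour on the longer side and 6 (1.71%) on the shorter one. On unplaced scaffolds 12 of 31 (38.7%, 21.9 to 57.8) had one on the longer side. Strong peaks of the other chromosomes scored lower, with a median of 425 (quartiles 270 and 683) against 554 on the arm (403.5 and 765). On the arm the share with such a neighbour was 36.3% with a score from 100 and 50% with a score from 300. The shares of the arm and the other chromosomes were not compared at equal scores. Just beyond the window, at 1500 to 1600 and 1600 to 1700 bp, the other chromosomes had 3.42 and 2.56 summits per 100 strong peaks on the longer side. The arm had 1.41 at each of these distances. Within the 1.3 to 1.5 kb that defines the pairs, the median distance was 1385 bp on the arm and 1390 bp on the other chromosomes, and the neighbours had a median score of 108 on the arm and 96 elsewhere.

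The pairs counted above are among the distances between all neighbouring summits, so these distances are no separate support. On the arm 196 of 2503 (7.83%, 95% interval 6.81 to 8.95) fell between 1.3 and 1.5 kb, against 92 in the window of the same length before it and 92 in the one after it. On the other chromosomes 670 of 16694 (4.01%) fell between 1.3 and 1.5 kb, with 580 before and 544 after. On the proximal part 25 of 496 (5.04%) fell there, with 27 before and 19 after. Among all pairs of summits up to 20 kb apart, the fullest bin of 100 bp on the arm was that from 1.3 to 1.4 kb with 108 pairs, against a median of 26.5 pairs per bin. The same bin was the fullest on the other chromosomes, with 359 pairs against a median of 169.5.

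Strong peaks of the class were spread over the arm. Neighbouring ones lay a median of 92.4 kb apart (quartiles 31.4 and 193 kb), and 33 of 283 distances were under 10 kb. They had the same hand as the one before in 145 of 283 cases (51.2%). They occurred in 238 of the 756 clusters (31.5%), of which 35 held 2 or more and the most in 1 cluster was 5. They made up 16.4% of the peaks in clusters of 2 to 4 and 7.84% in clusters of 10 or more, and 35 stood alone. Along the arm they made up 11.2, 9.52, 13.1 and 14.2% of peaks in the 4 segments up to 68 Mb and 6.32% (12 peaks) beyond.

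Together with their neighbours these peaks were 407 of the 2504, or 16.3% of the peaks of the arm, against 2.59% on the other chromosomes. With them left out in both places, the arm had 44.98 peaks per Mb and the other chromosomes 12.9, a ratio of 3.48 in place of 4.05.

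A second, smaller group of similar peaks appeared at 2 to 2.25 kb with scores of 1000 or more, again with limits set after the values were seen. The arm held 23 of them (0.919%), against a background of 0.12% (20 peaks) on the other chromosomes and none on the proximal part or the scaffolds. In 13 of the 23 the summit lay 580 to 660 bp from the nearer edge, and in 1 of the 20 elsewhere. This window was drawn around the summits of the arm, which favours the arm in these counts. Those 13 were 2080 to 2170 bp wide. They were spread between 32.3 and 70.4 Mb, and 4 of them had their summit at exactly 645 bp from the left edge, namely chr4:32289691-32291840 (score 2049), chr4:32329541-32331700 (score 2294), chr4:60397141-60399290 (score 2469) and chr4:70371391-70373540 (score 2475). Of the 23, 10 were lone peaks, as were 0 of the 20 on other chromosomes. Over all peaks, lone ones made up 10.7% on the arm and 17.5% on the other chromosomes.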

How the data were processed

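The study aligned single-end reads of 50 bp to Zv10 (GRCz10) using Novoalign 2.8, and a read with several equal positions was assigned to 1 of them at random. SAMtools was used to merge technical replicates. MACS2, run through a wrapper, then received 2 biological replicates together with 1 input. The authors deposited 1 pooled list with an integer score per peak, the other deposited fields being the bounds and the summit of each peak. The fields for fold, p and q were 0 throughout and not used. For sequencing depth no value is given in the sources used here.

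Spaces, stitched clusters and summit distances were computed in Python 3.11.15 with pandas 2.3.3, NumPy 2.4.6 and SciPy 1.17.1. The end of the last peak stood for a chromosome's length, and positions are counted from 1. Functions were checked on planted data. Shares carry exact binomial and densities exact Poisson 95% intervals, which cover counting error only and are too narrow where peaks cluster. Regions were named by rule: the 10 highest scoring and 5 widest peaks, the 5 clusters with the most peaks and the 5 with the longest covered length, the 3 strongest lone peaks, the 3 densest and 3 sparsest bins, the 5 longest spaces and the peaks beside 30 Mb. Pairs and strong classes were picked once values were known. The members and rules were chosen with earlier results of these data known. The planned analysis of genes and sequence was not run, as no genome or annotation of GRCz10 was used here. The start of the arm, the score, merging, stitching and the bin size were varied.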

Additional observations from a re-analysis of the deposited data

How the results depend on the processing

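Starting the arm at 32 Mb moved no value outside its counting interval or by over 1.5 times (720 clusters in place of 756). Keeping the 25% of peaks with the highest scores, density was 14.5 peaks per Mb, 46.4% had a neighbour within 10 kb, clusters numbered 484 with 0 of 10 or more, 14.2% were 5 kb or more and 17.0% were among the top 1000. With peaks merged within 500 bp, which left 1984 on the arm, these were 42.6 peaks per Mb, 82.5%, 756 with 17 of 10 or more, 6.75% and 5.95%. Stitching at 5 kb gave 1026 clusters with 23 of 10 or more, and at 20 kb 546 with 63. The densest bin reached 144 peaks per Mb with 500-kb bins. The values up to here are for the arm alone and do not show whether its contrasts with the other chromosomes held. Removing low scores raises the share among the top 1000 by construction. Limits of the strong 1.1 to 1.4 kb class were varied after the data were seen, and they had first been drawn 50 bp lower. Its share stayed higher on the arm than on other chromosomes, at 13.7% against 4.09% with a score from 100, 9.82% against 1.46% with a score from 300, 12.7% against 3.03% at 1 to 1.5 kb, 11.9% against 2.37% with the first width limit and 5.44% against 1.64% after merging. Neighbours on the longer side stood beside 36.3% to 50% of the class on the arm under those limits on score and width, and beside 47.5% with the first window of distances. After merging this was 0%, since merging joins peaks at the median space of 310 bp into 1. The list holds no input value, replicate or depth, so precision rests on numbers of peaks. No paired analysis was possible because 1 list held both replicates together, and no replicate could be left out.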
